A study of Mus musculus with 8 samples.

Results

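A set of 10 genes that separate the subsets of mouse B lymphocytes were followed through single-cell RNA counts of myeloid-sorted cells from the heart and the blood. The genes were Ighm, Ighd, Fcer2a, Cr2, Vpreb3, Bach2, Sox5, Mzb1, Il5ra and Dnase1l3, chosen by symbol, and each matched 1 of the 32285 gene rows deposited. The sorted cells were CD45+CD11b+ and came from 4 recipient mice that carried the alleles Mx1Cre and c-Mybfl/fl. Mx1Cre is a recombinase under an interferon-inducible promoter, and c-Myb is a factor that blood stem cells need. All recipients had been depleted of bone marrow and then transplanted, 2 with bone marrow of control donors and 2 with bone marrow of donors after stroke. Ages, the donors' strain and the time between transplant and sampling are not given in the sources used here, and how many host cells remained was not measured. Cells of the 2 organs of a mouse carried different hashtag antibodies and shared 1 library. The mouse was read from the number that ends each barcode, which was taken to be the number the submitters gave that sample, and comparisons of control with stroke marrow depend on that assumed match.

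A barcode was called a B barcode when it held at least 2 UMIs (unique molecular identifiers, that is counted RNA molecules) of Cd79a and Cd79b together, the signalling chains of the B cell receptor. Among barcodes that passed the filters, 625 of 4903 met this rule in the heart and 1264 of 4751 in the blood. None of the 10 genes is part of the rule. The label was checked against 9 B cell markers. Of these, Cd79a and Cd79b are the rule itself, and the other 7 had UMIs in the B barcodes of every mouse and organ. Detection alone does not tell cell types apart, because 5 macrophage markers also had UMIs in all of these sums. Levels below are counts per 1000000 UMIs (CPM). Itgam, which encodes the CD11b of the sort, stood at 65.0 to 101 CPM in heart B barcodes and 37.0 to 75.9 in blood B barcodes, against 245 to 280 and 369 to 432 in the other barcodes.

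Mature B cells fall into follicular (B-2), marginal zone and B-1 cells. Follicular cells carry surface IgD and the low-affinity IgE receptor CD23, marginal zone cells carry much of the complement receptor CD21 and little CD23, and B-1 cells carry abundant IgM, little IgD and little CD23. B-1 cells of the body cavities also carry CD11b and the interleukin-5 receptor, they renew themselves outside the bone marrow, and they secrete natural IgM. In the list, Ighm and Ighd encode the constant parts of the IgM and IgD heavy chains, Fcer2a encodes CD23 and Cr2 encodes CD21. Vpreb3 encodes a chaperone-like protein of the pre-B cell receptor that persists in young B cells. Bach2 and Sox5 encode transcription factors, the former a repressor that holds back plasma cell differentiation. Mzb1 encodes an endoplasmic reticulum protein that aids IgM assembly, Il5ra the alpha chain of the interleukin-5 receptor and Dnase1l3 a secreted nuclease.

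Reference sequence around transcription starts was available for 6 of the 10 genes (RefSeq, GRCm38.p6, 250 bases before to 50 bases after the start), and 4 windows are shown. These were picked because Vpreb3 and Fcer2a followed each other across the sums of B barcodes described below, while Il5ra and Sox5 took the opposite course to them. Capitals mark matches, on either strand, to motifs searched as letters: the octamer ATTTGCAT bound by Oct factors, the STAT6 pattern (TTC and GAA with 4 bases of any kind between) and the E-box CAGGTG. The windows lie at chr10:75948050-75948349 (plus strand) for Vpreb3, chr8:3690812-3691111 (minus strand) for the second of 3 listed starts of Fcer2a, chr6:106748988-106749287 (minus strand) for Il5ra and chr6:143947057-143947356 (minus strand) for Sox5, each printed along its gene's strand.
Vpreb3: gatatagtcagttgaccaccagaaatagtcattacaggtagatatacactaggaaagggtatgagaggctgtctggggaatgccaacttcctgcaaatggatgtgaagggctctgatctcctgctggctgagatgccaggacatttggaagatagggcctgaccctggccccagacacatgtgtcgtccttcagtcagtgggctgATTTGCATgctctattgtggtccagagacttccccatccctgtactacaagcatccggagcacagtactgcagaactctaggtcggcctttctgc
Fcer2a: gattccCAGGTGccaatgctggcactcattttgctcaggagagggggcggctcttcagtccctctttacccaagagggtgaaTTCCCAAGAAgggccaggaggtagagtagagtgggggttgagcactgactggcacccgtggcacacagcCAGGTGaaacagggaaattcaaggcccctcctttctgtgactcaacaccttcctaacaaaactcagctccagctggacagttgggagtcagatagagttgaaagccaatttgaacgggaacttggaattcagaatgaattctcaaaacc
Il5ra: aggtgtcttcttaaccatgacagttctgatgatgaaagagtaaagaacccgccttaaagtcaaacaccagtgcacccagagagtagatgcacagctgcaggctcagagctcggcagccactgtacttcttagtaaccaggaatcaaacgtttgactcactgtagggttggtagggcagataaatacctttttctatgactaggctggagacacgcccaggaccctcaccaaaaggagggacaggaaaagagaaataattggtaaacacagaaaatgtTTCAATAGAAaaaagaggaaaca
Sox5: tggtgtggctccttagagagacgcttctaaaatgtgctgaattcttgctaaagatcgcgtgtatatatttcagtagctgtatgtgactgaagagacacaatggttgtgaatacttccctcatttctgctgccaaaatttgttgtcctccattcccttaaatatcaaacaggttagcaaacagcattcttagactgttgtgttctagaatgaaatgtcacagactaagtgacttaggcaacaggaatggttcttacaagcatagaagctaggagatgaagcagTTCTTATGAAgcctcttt
The octamer begins 45 bases before the Vpreb3 start and was found in 1.74% of 32851 mouse promoter windows of the same length. The STAT6 pattern begins 168 bases before the Fcer2a start, 27 bases after the Il5ra start and 32 bases after the Sox5 start, and 6.95% of all windows hold it. The E-box begins 244 and 99 bases before the Fcer2a start, and 20.2% of all windows hold it. The EBF pattern (TCCC and GGGA with 2 bases between) and the kappaB consensus had no match in these 4 windows, against 0.904% and 0.155% of all windows. The Fcer2a window shown is the only one of its 3 with a match, and the windows at its other listed starts held none of the motifs searched. Offsets are counted from the listed starts. Those shown for Vpreb3, Sox5 and Fcer2a lie inside the annotated genes (chr10:75943057-75949657, chr6:143828425-144781977 and chr8:3681737-3694175) and not at their upstream ends. A match is a run of letters and not a measured binding site.

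The 4 libraries held 2020 to 3303 barcodes with 10059365 to 16482961 gene UMIs each and a median of 3996 to 4682 UMIs per barcode, and 14 barcode sequences occurred in more than 1 library (28 barcodes). There were 2 libraries that stood apart. Stroke replicate 2 had 983 B barcodes in the blood, 75.3% of its blood barcodes, where the other mice had 63 to 122. Control replicate 1 held 599 UMIs of the Y-linked gene Ddx3y and 1 of Xist, and the other libraries held at most 3 and at least 6472, so it differed in sex-linked expression from its group mate and from the stroke mice. Values below are therefore given for each mouse, in the order control 1, control 2, stroke 1, stroke 2, and results that rest on stroke 2 are also given without it.

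B barcodes made up 23.3%, 13.7%, 5.85% and 14.5% of heart barcodes and 11%, 6.56%, 6.99% and 75.3% of blood barcodes in that order, as the plot of B barcode shares shows. The share in the heart was 18.5 ± 6.78% (SD, n = 2) in control mice and 10.2 ± 6.10% in stroke mice, and in the blood 8.77 ± 3.13% and 41.1 ± 48.3%. Neither difference could be separated from the spread between mice (exact two-sided permutation p = 0.667 in each organ, where 0.333 is the smallest p that 2 against 2 allow). Heart minus blood within mice averaged a fall of 10.6 percentage points with all 4 mice (mean -10.6, exact sign-flip p = 0.875, smallest possible 0.125) and a gain of 6.08 without stroke 2. These are shares of a CD11b-sorted suspension, and the gate can set them.

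**Figure D1:**
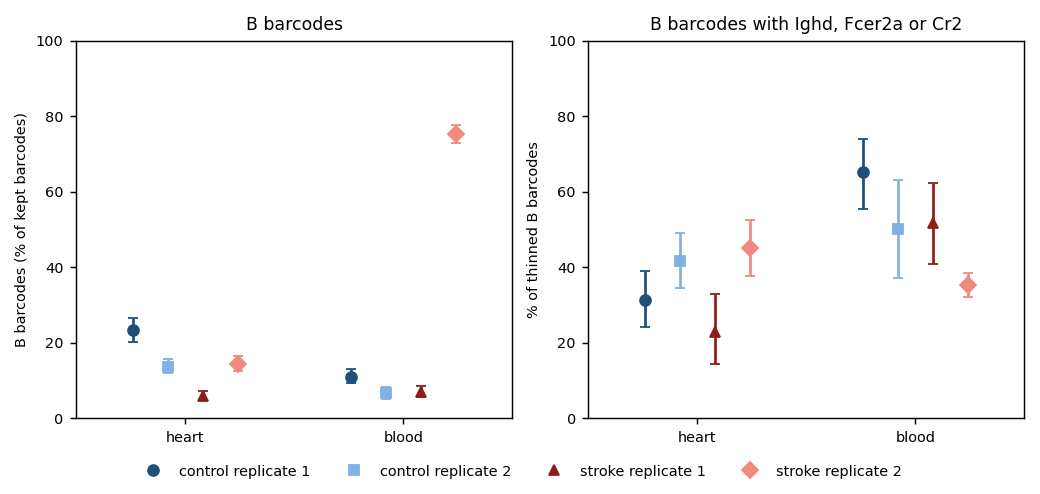
Share of B barcodes among kept barcodes (left) and share of B barcodes with at least 1 UMI of Ighd, Fcer2a or Cr2 after thinning every barcode to 2000 UMIs (right), in percent, for each mouse and organ. Bars are exact 95% binomial intervals for counting error only; stroke replicate 2 stands at 75.3% in the blood on the left, and the other blood samples lie between 6.56% and 11%.

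All 10 genes were higher in B barcodes than in the other barcodes of the same mouse, in the heart and in the blood (edgeR quasi-likelihood test with Benjamini-Hochberg adjustment over all genes, mouse as a block). The comparison called many genes: of 9999 genes tested in the heart 54.7% were called, 26.9% as higher in B barcodes, and of 10204 in the blood 47.8% and 21.3%. The members were picked as B cell genes, so the direction is a description of the list. The genes differed in how much signal remained outside the B barcodes.

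Ighm had signal in nearly every B barcode. Its level was 2356, 2379, 2081 and 2180 CPM in heart B barcodes and 2810, 2611, 2551 and 3631 in blood B barcodes, and 88.9% to 99.6% of B barcodes held a UMI. The other barcodes held 155, 163, 154 and 166 CPM in the heart and 168, 108, 129 and 131 in the blood, with a UMI in 28.4% to 43.8% of them. The level in B barcodes was thus 13.1 to 15.2 times that of the other barcodes in the heart and 16.7 to 27.7 times in the blood (log2 difference 3.99 ± 0.11 SE, adjusted p = 1.28e-07, and 4.45 ± 0.18 SE, adjusted p = 8.51e-08, edgeR). The remainder was not spread evenly over the other cells. Barcodes in the macrophage gate (at least 10 UMIs of C1qa, C1qb and C1qc) held 78.6% of the Ighm UMIs found in other heart barcodes. They were 2105 of the 4278 other heart barcodes. Their median was 4963 UMIs, against 3752 to 4747 over all other heart barcodes of a mouse. Their Ighm level was 203, 234, 192 and 210 CPM in the 4 mice, with a UMI in 52.0% to 60.9% of them. Neutrophil-gate barcodes (at least 10 UMIs of S100a8 and S100a9) stood at 118 CPM in the heart and 134 in the blood over all mice, and NK-gate barcodes at 49.3 and 55.8. Barcodes of the plasmacytoid dendritic cell gate (56 in the heart, 17 in the blood) held 160 and 193 CPM. Those of the type 2 dendritic cell gate (135 and 244) held 107 and 176. Heart B barcodes of the 4 mice held 2889, 2634, 1383 and 2493 Ighm UMIs and 577, 532, 266 and 427 Mzb1 UMIs. Other heart barcodes held 425, 816, 1034 and 820 Ighm UMIs and 0, 2, 2 and 10 Mzb1 UMIs. The source of the Ighm UMIs outside B barcodes was not tested.

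Ighd, the partner isotype that is spliced from the same primary transcript, had almost no signal outside B barcodes. It stood at 106, 160, 110 and 204 CPM in heart B barcodes and 569, 376, 263 and 217 in blood B barcodes. The other barcodes held 3 to 13 UMIs per mouse and organ, at most 2.43 CPM in the heart and 0.822 to 10.9 in the blood. The highest of these was the blood of stroke 2. The log2 difference was 6.83 ± 0.20 SE in the heart and 7.36 ± 0.49 SE in the blood (adjusted p = 1.51e-07 and 8.16e-07, edgeR).

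The receptors of follicular and marginal zone cells, Fcer2a and Cr2, were detected in a minority of B barcodes. Fcer2a had a UMI in 17.8%, 33.0%, 16.7% and 33.2% of heart B barcodes and in 46.7%, 41.3%, 28.1% and 18.4% of blood B barcodes. Its level in other barcodes was at most 1.20 CPM in the heart and 2.51 in the blood. Cr2 had a UMI in 30.6%, 34.0%, 21.1% and 32.6% of heart B barcodes and in 32.8%, 22.2%, 16.7% and 15.97% of blood B barcodes, with at most 8 UMIs in the other barcodes of any mouse and organ. Both receptors were called in both organs, with log2 differences of 7.34 ± 0.38 SE and 7.14 ± 0.29 SE for Fcer2a and of 6.72 ± 0.27 SE and 6.01 ± 0.31 SE for Cr2 in heart and blood (largest adjusted p = 1.72e-06, edgeR). Il5ra, the receptor chain associated with B-1 cells, had a UMI in 57.3%, 46.6%, 53.3% and 42.3% of heart B barcodes and in 42.6%, 30.2%, 37.5% and 56.4% of blood B barcodes. It had 0 to 6 UMIs in the other barcodes of each mouse and organ except the blood of stroke 2, which had 18. Unless thinning is named, shares with a UMI are at full depth. Median UMIs per B barcode were 6268, 5217, 6396 and 5508 in the heart and 4468, 4115, 5032 and 5859 in the blood. After thinning to 2000 UMIs, Il5ra was found in 34.4%, 27.6%, 29.55% and 25.0% of heart and 26.6%, 14.5%, 24.7% and 27.8% of blood B barcodes.

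Vpreb3, the marker of young B cells, had a UMI in 7.01%, 10.5%, 3.33% and 17.7% of heart B barcodes and in 32.0%, 27.0%, 12.5% and 8.34% of blood B barcodes. It stood at 27.7, 30.7, 13.6 and 57.7 CPM in heart B barcodes and 125, 131, 43.2 and 20.4 in blood B barcodes. Outside B barcodes 2 UMIs were counted in all, both in the heart of stroke 2. In the blood, where every other sum was at 0, the level in B barcodes was at least 155-fold, 160-fold, 73.1-fold and 8.12-fold higher in the 4 mice when 3 UMIs per mouse are taken as the floor. The heart values rest on few cells: 1 barcode held 61.8% of the 34 Vpreb3 UMIs of control 1 and 1 barcode held 66.7% of the 9 UMIs of stroke 1.

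The transcription factors differed from each other in where they were found. Bach2 had the smallest difference between B and other barcodes of the 10, at 429, 411, 393 and 410 CPM in heart B barcodes and 158, 85.3, 60.2 and 89.3 in the other heart barcodes. In the blood it stood at 960, 780, 447 and 467 against 99.0, 79.2, 82.6 and 206. The log2 difference was 2.32 ± 0.19 SE in the heart and 2.57 ± 0.28 SE in the blood (adjusted p = 1.45e-05 and 2.27e-05, edgeR). Among other barcodes, those in the T cell gate (16 in the heart, 58 in the blood) held 402 CPM in the heart and 497 in the blood. Barcodes of the plasmacytoid dendritic cell gate (56 and 17) held 122 and 529. NK-gate barcodes held 309 and 224, and barcodes of the type 2 dendritic cell gate 279 and 287, whereas neutrophil-gate barcodes held 29.7 and 6.21. Sox5 was found in 42.9% to 85.6% of the B barcodes of a mouse and organ, at 1305, 1061, 959 and 763 CPM in the heart and 882, 718, 867 and 1507 in the blood. Other barcodes held 4.18 to 22.9 in the heart and 4.39 to 23.9 in the blood of 3 mice, but 250 in the blood of stroke 2 (log2 difference 6.74 ± 0.43 SE in the heart and 5.40 ± 0.68 SE in the blood, adjusted p = 4.6e-06 and 6.82e-05, edgeR). Bach2 (chr4:32238804-32586108, 347 kb, plus strand) and Sox5 (chr6:143828425-144781977, 954 kb, minus strand, GRCm38) are long genes with 2.86% and 1.51% of their length in exons, and both overlap antisense genes. No source used here says whether reads in introns were counted. The levels above were compared between samples, classes of barcodes and gates, and the part of intron reads in them was not tested.

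Mzb1, the chaperone of IgM assembly, had few UMIs outside B barcodes. It stood at 471, 481, 400 and 373 CPM in heart B barcodes and 458, 511, 594 and 606 in blood B barcodes, with a UMI in 71.1% to 89.8% of them. Other barcodes held 0, 2, 2 and 10 UMIs in the heart and 3, 1, 5 and 5 in the blood (log2 difference 9.29 ± 0.36 SE and 8.91 ± 0.29 SE, adjusted p = 3.31e-07 and 3.6e-08, edgeR). Dnase1l3 stood at 108, 171, 107 and 69.1 CPM in heart B barcodes and 29.9, 6.90, 39.5 and 54.0 in blood B barcodes. Other barcodes held 8.39, 6.97, 4.18 and 5.28 in the heart and 1.35, 4.66, 1.18 and 3.34 in the blood. The log2 difference was 4.39 ± 0.21 SE in the heart and 3.75 ± 0.51 SE in the blood (adjusted p = 8.76e-07 and 0.000115, edgeR), and the blood of control 2, with 2 Dnase1l3 UMIs in B barcodes, was close to its other barcodes.

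**Figure D2:**
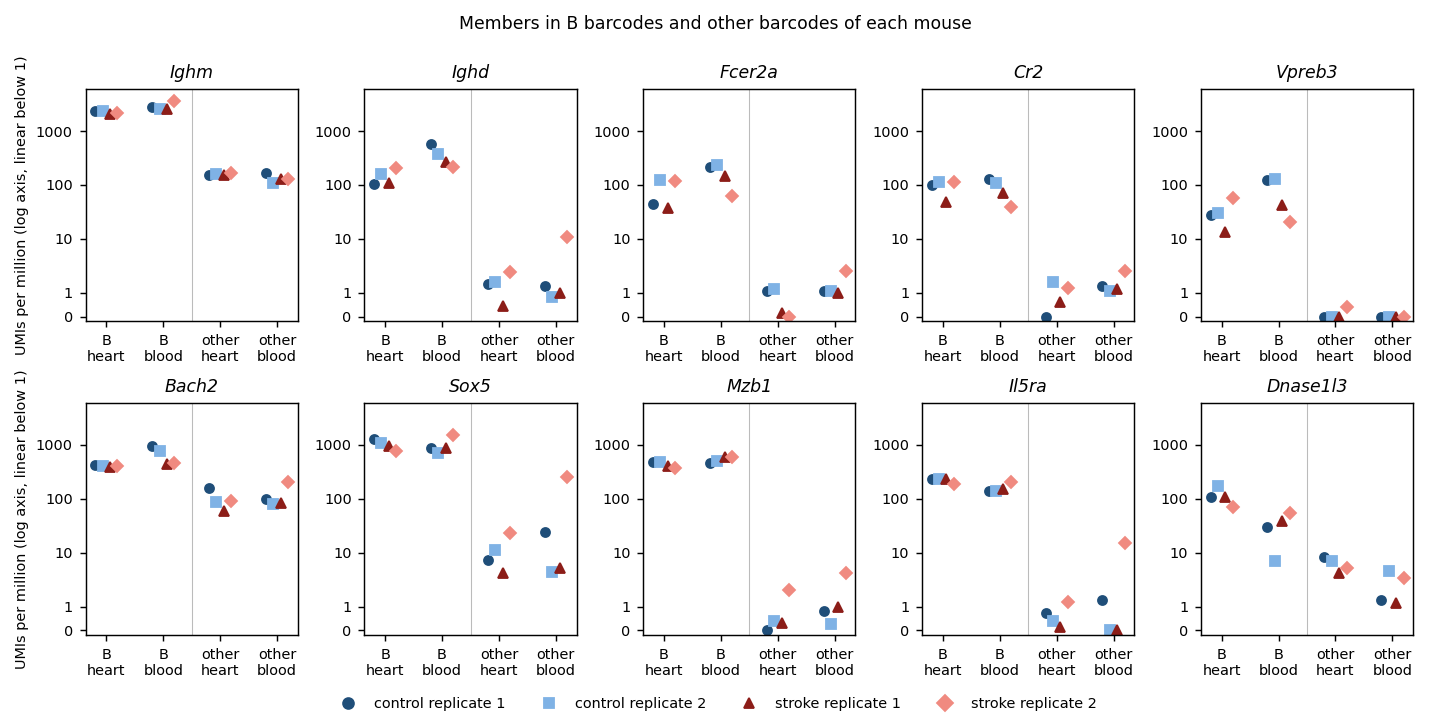
Level of each of the 10 genes in CPM (log axis, linear below 1) in B barcodes and other barcodes of heart and blood, 1 point per mouse. Ighm and Bach2 keep a level of 108 to 168 and 60.2 to 206 CPM in other barcodes, and Vpreb3 is at or near 0 there.

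The choice of 2 UMIs sets the edge of the class. Barcodes with a single UMI of Cd79a or Cd79b (282 in the heart, 151 in the blood) stood at 168 and 158 CPM for Ighm, close to the other barcodes, and at 32.9 and 180 CPM for Sox5, above the other barcodes of every mouse in the heart and of 3 mice in the blood. Those with exactly 2 (47 and 28) held 335 and 885 for Ighm and 205 and 1923 for Sox5.

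Other B cell genes, in lists of textbook markers, moved as follows between B and other barcodes. Of 22 pan-B genes, 21 of 22 tested were called higher in the heart and 22 of 22 in the blood, for example Ms4a1, which encodes CD20 (log2 difference 9.17 ± 0.28 SE, heart). Of 23 B-1 genes, 12 were called higher and 8 lower of 22 tested in the heart, and 10 higher and 9 lower of 23 in the blood. Zbtb32, a transcriptional repressor, was among those higher (6.99 ± 0.24 SE in the heart), and Itgam among those lower (-1.51 ± 0.12 SE in the heart, -2.79 ± 0.21 SE in the blood). Of 18 follicular genes, 12 were higher and 2 lower in the heart and 9 and 2 in the blood, led by Cd55, a complement regulator (5.39 ± 0.15 SE and 5.54 ± 0.27 SE). Marginal zone genes were called in both directions (5 higher and 4 lower of 10 in the heart, 3 and 4 of 9 in the blood), plasma cell genes likewise (4 and 3 of 9, 5 and 2 of 9), and of 12 immature B genes only 4 passed the filter on low counts in either organ, 2 higher and 2 lower. Of 19 coreceptor and signalling genes, 10 were higher and 3 lower in the heart and 9 and 6 in the blood.

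Between organs, within B barcodes of the same mouse, Ighd and Bach2 were lower and Dnase1l3 was higher in the heart than in the blood. These were 3 calls among the 10 genes, 2 lower and 1 higher, where 12.4% of 7687 genes were called (5.01% lower, 7.40% higher; DESeq2 called 507, 356 of them higher and 151 lower, against 569 and 385). The median log2 difference of the 10 was -0.27, and that of all genes -0.02. Over all genes tested, 20.5% were lower in the heart in all 4 mice and 11.9% were higher in all 4, so agreement of the mice was common. Ighd fell in all 4 mice, by log2 differences of -2.42, -1.23, -1.26 and -0.09 (fitted -1.15 ± 0.26 SE, adjusted p = 0.0114, edgeR). The heart values, 106 to 204 CPM, lay below all blood values, 217 to 569, and stroke 2 showed almost no difference. The adjusted p was 0.109 with DESeq2, and 0.0529, 0.0524 and 0.0595 without control 1, control 2 or stroke 1.

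Bach2 was lower in the heart in all 4 mice, by -1.16, -0.92, -0.19 and -0.19 (fitted -0.54 ± 0.15 SE, adjusted p = 0.0339, edgeR). The drop was larger in both control mice than in both stroke mice. The call was lost with DESeq2 (adjusted p = 0.0541), without control 1 (0.226) or control 2 (0.150), without Scrublet, a caller of doublets (0.0512), without the mouse as a block (0.0787), and when B barcodes that also fell in another cell type's gate were left out (log2 difference -0.35, adjusted p = 0.191). Among B barcodes without a UMI of Ighd, Fcer2a or Cr2 the difference was 0.03 on the log2 scale, an alternative chosen after seeing the data. The 2 rule genes were also lower in the heart in all 4 mice. Cd79a showed -0.27 ± 0.11 SE (adjusted p = 0.14) and Cd79b -0.39 ± 0.12 SE (adjusted p = 0.0483, edgeR).

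Dnase1l3 was higher in the heart in all 4 mice, by 1.85, 4.63, 1.44 and 0.36 (fitted 1.47 ± 0.35 SE, 2.77-fold, adjusted p = 0.0144, edgeR). The lowest heart value, 69.1 CPM, lay above the highest blood value, 54.0, although the blood values rest on 21, 2, 21 and 339 UMIs. The adjusted p was 0.105 with DESeq2, 0.0717 without control 1 and 0.0614 without stroke 1. Macrophage markers moved with organ: the sum of 5 (C1qa, C1qb, C1qc, Mrc1, Adgre1, all detected in every mouse) was 1189, 739, 3689 and 3105 CPM in heart B barcodes and 28.2 to 65.4 in blood B barcodes. Macrophage-gate barcodes themselves stood at 7.102 CPM for Dnase1l3 in the heart, below every heart B value, and the difference was 1.77 ± 0.31 SE (adjusted p = 0.00135, edgeR) when B barcodes in other gates were left out. The part of macrophage RNA in the Dnase1l3 difference was not tested.

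Fcer2a and Vpreb3 were lower in the heart in 3 mice and higher in stroke 2. Fcer2a stood at 44.9, 122, 37.6 and 116 CPM in the heart against 218, 235, 147 and 61.6 in the blood (fitted -0.83 ± 0.38 SE, adjusted p = 0.194). For Vpreb3 the values given above correspond to log2 differences of -2.17, -2.09, -1.67 and 1.5 (fitted -0.81 ± 0.50 SE, adjusted p = 0.341, edgeR). Without stroke 2 both were called, at -1.57 ± 0.21 SE (adjusted p = 1.92e-06) and -1.94 ± 0.23 SE (adjusted p = 2.95e-07, edgeR). Cr2 stood at 97.9, 114, 48.2 and 115 CPM in the heart and 131, 107, 71.4 and 39.0 in the blood, with no common direction (fitted 0.37 ± 0.28 SE, adjusted p = 0.439).

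Il5ra and Sox5 took the opposite course. Il5ra was higher in the heart in control 1, control 2 and stroke 1, at 228, 233 and 230 CPM against 137, 138 and 149 in the blood, and stroke 2 had 185 against 208. The fitted difference was 0.51 ± 0.17 SE (adjusted p = 0.0734, edgeR), and it was called without stroke 2 (0.81 ± 0.16 SE, adjusted p = 0.000441). Sox5 was higher in the heart by 0.57, 0.56 and 0.15 in those mice and lower by 0.98 in stroke 2 (fitted 0.14 ± 0.22 SE, adjusted p = 0.752; 0.53 ± 0.12 SE without stroke 2, adjusted p = 0.00295, edgeR). Ighm was lower in the heart by 0.13 to 0.74 in all 4 mice without passing the test (-0.28 ± 0.13 SE, adjusted p = 0.187). Mzb1 showed -0.26 ± 0.15 SE (adjusted p = 0.290).

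**Figure D3:**
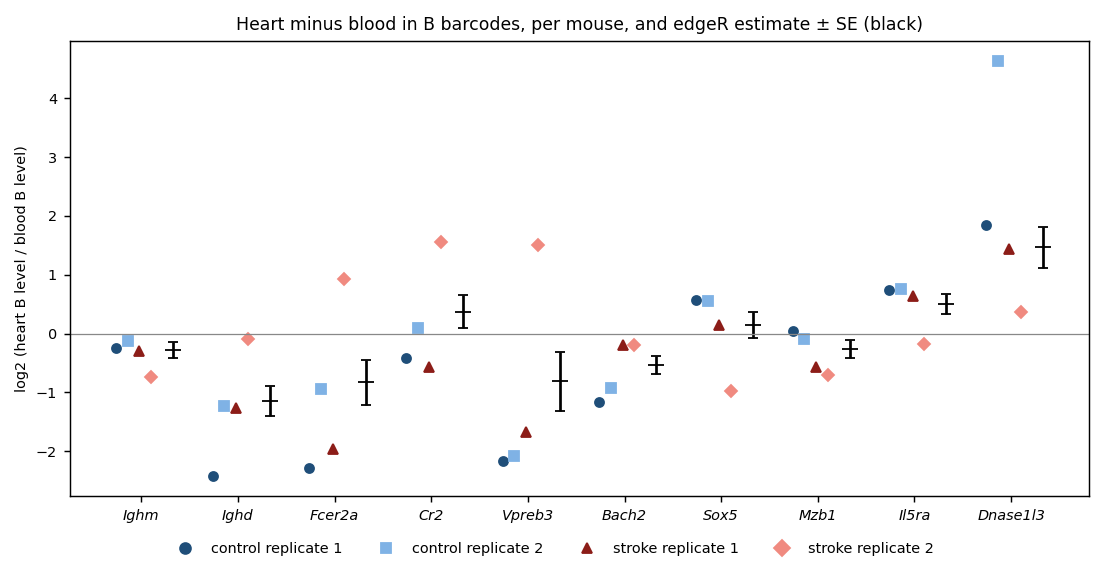
Log2 ratio of the level in heart B barcodes to that in blood B barcodes for each gene (1 point per mouse) with the edgeR estimate and its standard error in black. Ighd, Bach2 and Ighm lie below 0 and Dnase1l3 above 0 in all 4 mice, as do 20.5% and 11.9% of all genes tested. Stroke replicate 2 lies on the other side of 0 from its neighbours for Fcer2a, Vpreb3, Sox5 and Il5ra.

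Related genes by list differed between organs as follows, where 7.40% of all genes tested were called higher and 5.01% lower. Of 18 follicular genes tested, 4 were lower in the heart and 0 higher, among them S1pr1, the receptor for the egress signal sphingosine-1-phosphate (-0.89 ± 0.14 SE), Cd55 (-0.82 ± 0.13 SE) and Gpr183, an oxysterol receptor (-0.65 ± 0.12 SE). Of 20 B-1 genes tested, 4 were higher and 0 lower, among them Plscr1 (1.10 ± 0.20 SE), Itgam (0.65 ± 0.16 SE) and Cd9, a tetraspanin (0.57 ± 0.16 SE). Of 22 pan-B genes, 10 were lower, such as Fcrla (-0.79 ± 0.12 SE), and 1 higher, Cd72 (1.45 ± 0.32 SE). The medians were -0.03, -0.10 and -0.41 on the log2 scale, against -0.02 for all genes. Of the remaining lists, marginal zone genes gave 2 higher of 8 tested, plasma cell genes 1 higher and 1 lower of 9, immature genes 1 lower of 3, and coreceptor and signalling genes 3 higher and 5 lower of 19. Itgam is also a macrophage gene, and the part of the macrophage RNA described above in these differences was not tested.

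None of the 10 genes was called between stroke and control in heart B barcodes, where 1.87% of 8487 genes were (1.57% higher, 0.306% lower). Among the 10, 2 had an unadjusted p under 0.05, as did 10.9% of all genes. Sox5 (1305 and 1061 in control mice, 959 and 763 CPM in stroke mice) differed by -0.49 ± 0.18 SE (adjusted p = 0.321), and Dnase1l3 (108 and 171 against 107 and 69.1) by -0.73 ± 0.27 SE (adjusted p = 0.301, edgeR). In 5 of the 10, Ighm, Bach2, Sox5, Mzb1 and Dnase1l3, both stroke values lay below both control values, which held for 17.4% of all genes tested (40.1% did not overlap in either direction), and the other 5 overlapped. The gap was small for Bach2 (393 and 410 against 429 and 411) and for Dnase1l3 (107 against 108). Macrophage and neutrophil markers moved with donor group in these barcodes: the macrophage sums given above were 739 and 1189 in control and 3105 and 3689 in stroke mice, and the sum of 5 neutrophil markers was 333, 24.4, 1734 and 1645 CPM. Removal of doublets differed between the groups too: Scrublet removed 39 and 180 barcodes in the control libraries and 9 and 3 in the stroke libraries. The part of doublets left in these sums was not tested, and without Scrublet 26 genes were called in place of 159. Of heart B barcodes, 12.1%, 5.76%, 30.0% and 19.3% also fell in another cell type's gate. When those were left out, 6 genes in all were called instead of 159, none of them among the 10. Ighm then differed by 0.00 in place of -0.18, and the part of the other cells' RNA in the remaining differences was not tested.

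In blood B barcodes no gene of 6861 was called between stroke and control with edgeR (percent called 0.0), 378 had an unadjusted p under 0.05, which is 5.51%, and DESeq2 called 2. Of the 10 members 7 had such an unadjusted p. Ighd (569 and 376 against 263 and 217 CPM), Fcer2a (218 and 235 against 147 and 61.6), Cr2 (131 and 107 against 71.4 and 39.0), Vpreb3 (125 and 131 against 43.2 and 20.4) and Bach2 (960 and 780 against 447 and 467) lay lower in both stroke mice. For 24.2% of all genes both stroke values lay below both control values, and for 36.1% the groups did not overlap in either direction. Mzb1 (458 and 511 against 594 and 606), Il5ra (137 and 138 against 149 and 208) and Dnase1l3 (29.9 and 6.90 against 39.5 and 54.0) lay higher in both, as did 11.8% of all genes, and Ighm and Sox5 overlapped.

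The sizes in the blood were largest for Vpreb3, at -2.22 ± 0.31 SE (adjusted p = 0.264, edgeR), which was one of the 2 genes DESeq2 called (-2.08 ± 0.44 SE, adjusted p = 0.0148). Without stroke 2 the difference was -1.49 ± 0.34 SE (adjusted p = 0.00196), a fit that assumes the lone stroke mouse to vary as the controls do. Cr2 showed -1.23 ± 0.29 SE (adjusted p = 0.582), Fcer2a -1.18 ± 0.35 SE (0.711), Ighd -0.92 ± 0.23 SE (0.589) and Bach2 -0.84 ± 0.19 SE (0.582, edgeR). Itgam stood at 37.0 and 41.4 CPM in control and 67.7 and 75.9 in stroke mice (1.02 ± 0.25 SE, adjusted p = 0.589). B barcodes of stroke 1 held 281 Jchain UMIs against 2 to 34 in the other mice, with 3 barcodes in the plasma cell gate.

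**Figure D4:**
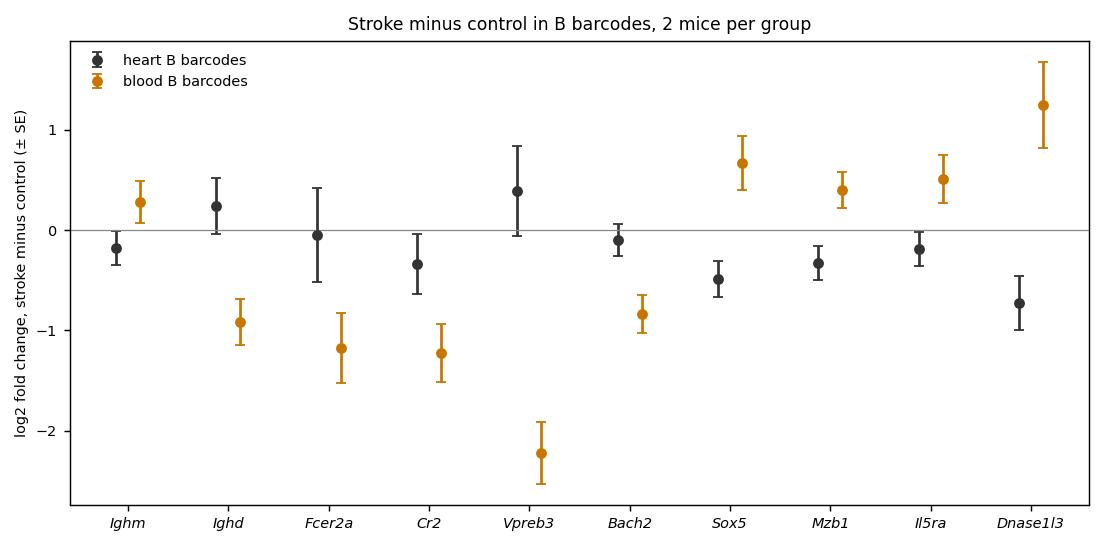
Log2 difference between stroke and control B barcodes for the 10 genes in the heart (dark) and the blood (orange), edgeR estimates with standard errors from 2 mice per group. No adjusted p fell under 0.05; Vpreb3 in the blood has the largest estimate, -2.22.

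Whether the organ difference itself depended on the donor group was tested with an interaction term. It called Vpreb3 alone among the 10 (2.70 ± 0.56 SE, adjusted p = 0.0326, edgeR), where 0.401% of 8727 genes were called. Its heart minus blood differences were -2.17 and -2.09 in control mice and -1.67 and 1.5 in stroke mice, so the groups differed by the value of stroke 2. Without stroke 2 the interaction was 0.39 ± 0.67 SE (adjusted p = 0.970), and the adjusted p was 1.0 with DESeq2 and 0.342 without the mouse as a block. Next were Sox5 (-1.10 ± 0.25 SE, adjusted p = 0.0679), Bach2 (0.77 ± 0.20 SE, 0.108), Dnase1l3 (-1.90 ± 0.49 SE, 0.113), Mzb1 (-0.71 ± 0.20 SE, 0.151) and Ighd (1.21 ± 0.34 SE, 0.170). All 10 had an unadjusted p under 0.05, against 8.16% of all genes. They were chosen with results of these samples known, and stroke 2 supplies 983 of the 1264 blood B barcodes, so the count is a description of these libraries.

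Within B barcodes, those with IgD, CD23 or CD21 transcripts were set against those without. Each barcode was thinned to 2000 UMIs so that both sides had the same depth, which left 610 heart and 1187 blood B barcodes. At least 1 UMI of Ighd, Fcer2a or Cr2 was found in 31.2%, 41.6%, 22.7% and 45.0% of heart B barcodes and in 65.1%, 50%, 51.7% and 35.3% of blood B barcodes. The share was lower in the heart in 3 mice and higher in stroke 2. The 3 genes of the split are not tested on it.

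Bach2 was higher in the barcodes with IgD, CD23 or CD21 transcripts in all 4 mice and in both organs. In the blood it stood at 1324, 1306, 609 and 679 CPM in barcodes with them and 355, 339, 244 and 335 without, and in the heart at 704, 929, 900 and 735 against 370, 338, 294 and 308. The log2 differences were 1.34 ± 0.16 SE (adjusted p = 5.36e-07) in the blood and 1.26 ± 0.17 SE (adjusted p = 6.92e-08, edgeR) in the heart. Of the 5 members tested in the blood, 1 was called higher and 2 lower, and of 6 in the heart 1 and 3. Over all genes 8.27% of 1426 (4.42% higher, 3.86% lower) and 8.60% of 2501 (4.4% higher, 4.2% lower) were called (in the blood 63 higher and 55 lower, and with DESeq2 18 and 31). Leaving out each mouse in turn moved the Bach2 difference between 1.19 and 1.66 in the blood and between 1.19 and 1.38 in the heart.

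Sox5 was lower on the same side in all 4 mice and both organs. It stood at 416, 371, 380 and 1177 CPM with and 1197, 952, 802 and 1554 without in the blood, and at 847, 409, 475 and 525 against 1398, 1005, 890 and 899 in the heart. The differences were -1.0 ± 0.17 SE (adjusted p = 9.21e-05) and -0.94 ± 0.16 SE (adjusted p = 1.25e-05, edgeR), and without the mouse as a block the adjusted p in the blood was 0.129. Mzb1 was lower too, by -0.50 ± 0.16 SE in the blood (adjusted p = 0.0486) and -0.72 ± 0.19 SE in the heart (adjusted p = 0.00554, edgeR). In the blood the 2 sides were close in both control mice (409 and 500 against 447 and 484) and further apart in the stroke mice (424 and 477 against 698 and 712). The Mzb1 calls were lost with DESeq2 (adjusted p = 0.255 in the blood and 0.0979 in the heart), without the mouse as a block (0.207 and 0.114), in the heart without control 2 (0.277), and in the blood without stroke 1 (0.172), without stroke 2 (0.292), without the filter on low counts (0.173) or without B barcodes in other gates (0.111).

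Dnase1l3 was lower in heart barcodes with IgD, CD23 or CD21 transcripts, at 81.6, 64.9, 50 and 24.7 CPM against 120, 176, 103 and 96.0 (-1.27 ± 0.32 SE, adjusted p = 0.00511, edgeR; 0.259 with DESeq2, 0.176 without control 2 and 0.0995 without stroke 2). These levels rest on 2 to 38 UMIs each. In the blood Dnase1l3 did not pass the filter on low counts. Ighm and Il5ra were not called on either side: Ighm differed by -0.25 ± 0.13 SE in the blood (adjusted p = 0.235) and -0.26 ± 0.12 SE in the heart (adjusted p = 0.189), and Il5ra by -0.42 ± 0.23 SE (0.274) and -0.30 ± 0.23 SE (0.5, edgeR). Vpreb3 did not pass the filter in either organ. It was found in 21.1%, 25.8%, 15.2% and 6.73% of blood barcodes with the 3 transcripts and in 2.63%, 6.45%, 0.0% and 1.67% of those without. In the heart the shares were 6.12%, 14.3%, 0.0% and 19.8% with and 2.78%, 2.78%, 4.41% and 1.01% without, so stroke 1 went the other way there.

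**Figure D5:**
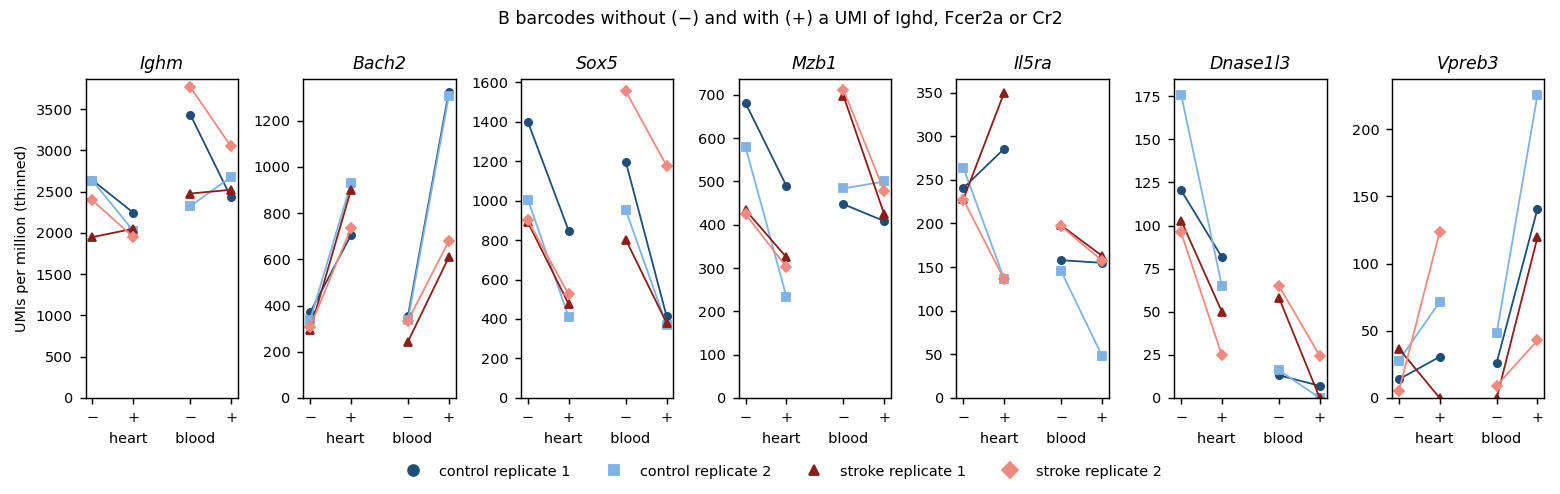
Level of 7 genes, in CPM after thinning to 2000 UMIs, in B barcodes without (−) and with (+) a UMI of Ighd, Fcer2a or Cr2, 1 line per mouse, heart on the left and blood on the right of each panel. Bach2 rises and Sox5 falls from − to + in every mouse and organ.

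Genes of the lists moved on the same split. In the blood 4 of 12 follicular genes tested were higher and 0 lower, including Cd55 (0.82 ± 0.16 SE) and Foxp1 (0.52 ± 0.13 SE). In the heart 6 of 14 were higher, including the chromatin organiser Satb1 (2.83 ± 0.27 SE), and 1 lower, Klf2 (-0.45 ± 0.15 SE). Of B-1 genes, 5 of 9 were lower in the blood and 6 of 15 in the heart, with none higher, including S100a6, a calcium-binding protein (-1.61 ± 0.18 SE and -0.76 ± 0.12 SE), Lgals1 (-1.35 ± 0.24 SE in the blood) and Zcwpw1 (-2.79 ± 0.54 SE in the heart). The list medians were 0.15 and 0.44 for follicular genes and -0.71 and -0.74 for B-1 genes in blood and heart, against 0.01 and 0.00 for all genes. Among pan-B genes Ebf1 (0.66 ± 0.13 SE and 0.76 ± 0.13 SE) and Bank1 (0.46 ± 0.12 SE and 0.54 ± 0.12 SE) were higher, and a light chain gene was lower in each organ, Igkc in the blood (-0.52 ± 0.15 SE) and Iglc1 in the heart (-0.83 ± 0.17 SE).

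The 8 sums of B barcodes (4 mice, 2 organs) show how the 10 genes varied together. Correlations are of log2 levels over these 8 sums, which share mice, libraries and composition, and they are given without a test. Ighd followed Fcer2a (r = 0.88), Bach2 (0.88) and Vpreb3 (0.86), and Fcer2a followed Vpreb3 (0.91). Il5ra ran against Ighd (-0.91), Vpreb3 (-0.87) and Fcer2a (-0.84) and with Dnase1l3 (0.86). Sox5 ran against Fcer2a (-0.67) and Vpreb3 (-0.67), Ighm went with Mzb1 (0.76), and Cr2 was nearest to Vpreb3 (0.74). Among 5929 other genes of at least 20 CPM, the closest to Cr2 were Hvcn1 (0.98), a proton channel, the chemokine receptor Ccr6 (0.96) and the BAFF receptor Tnfrsf13c (0.92). The closest to Ighm were AU020206 (0.98), Mcu (0.94) and Siglecg (0.94), to Vpreb3 Slc4a7 (0.98), Cnr2 (0.97) and Polr2m (0.97), and to Il5ra Pde8a (0.96), Impact (0.95) and Cd80 (0.95). For Ighd, Fcer2a, Bach2, Sox5 and Dnase1l3 the closest single genes were Zfp148 (0.98), Lrrk2 (0.96), Nfat5 (0.98), Ubac1 (0.92) and Gypc (0.98).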

How the data were processed

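Raw UMI counts of genes and hashtags for each barcode were deposited by the authors as 1 matrix, made with Cell Ranger 7.1.0 on mm10 per the submitters' processing notes. The rest was computed here. The barcode endings 1 and 3 were taken as control replicates 1 and 2, and 2 and 4 as stroke replicates 1 and 2. Organ was called with HTODemux (Seurat 5.3.0, quantile 0.99), and barcodes under 200 genes or over 10% mitochondrial UMIs were left out. Scrublet (scanpy 1.11.5, expected rate 6%) removed 39 and 180 barcodes of control replicates 1 and 2 and 9 and 3 of stroke replicates 1 and 2, at thresholds of 0.255, 0.148, 0.523 and 0.514. Hashtags marked 954 barcodes as doublets, and 101 had none. The 2 reporter transcripts stayed out of the tests.

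Sums of UMI counts for each class, organ and mouse were tested with the quasi-likelihood test of edgeR 4.0.16 (TMM, filterByExpr, Benjamini-Hochberg threshold 0.05) over all genes, with the mouse as a block within mice. DESeq2 1.42.0 was an alternative, as were other filters, hashtag calls, B rules, blocks and leaving out each mouse. Scripts were tested on simulated data. Levels are CPM, and correlations used log2 levels with 1 added. Intervals are exact 95% binomial intervals and cover counting error only. Nothing in the labels says how the mice of a group are related, and with 2 mice per group p-values measure the spread between these mice. The members and gene lists were chosen with earlier results of these data known. The text names the 10 members, Cd79a, Cd79b and Itgam, up to 3 called genes per direction and list with the smallest p, and the 3 genes of highest correlation with a member; Jchain, Ddx3y, Xist and single markers were named after their values were seen. Some genes, and an alternative B rule that needs one of them, are not reported here.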

Additional observations from a re-analysis of the deposited data

Results flagged for a closer look

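The interaction term of edgeR's quasi-likelihood test, which asks whether the organ difference in B barcodes depends on the donor group, called 3 genes of the members and lists, where 0.401% of 8727 genes were called. None of the 3 calls held with DESeq2 (adjusted p = 1.0 for each) or without the mouse as a block (adjusted p = 0.342 for Vpreb3, 0.161 for Ctla4 and 0.259 for Cd72). For Vpreb3 the interaction was 2.70 ± 0.56 SE on the log2 scale (adjusted p = 0.0326), and it was 0.39 without stroke replicate 2. For Ctla4, an inhibitory receptor of the B-1 list, it was -2.18 ± 0.37 SE (adjusted p = 0.006), and -2.29 to -2.03 with adjusted p from 1.39e-05 to 0.0358 on leaving out each mouse. In the thinned barcodes without Ighd, Fcer2a and Cr2, an alternative chosen after seeing the data, the adjusted p was 0.345. Ctla4 stood at 101, 99.4, 51.2 and 77.8 CPM in heart B barcodes and 19.9, 24.2, 47.0 and 69.6 in blood B barcodes, in the order control 1, control 2, stroke 1, stroke 2. The heart was above the blood in all 4 mice, with a smaller gap in both stroke mice. For Cd72, a B cell coreceptor, the interaction was 1.88 ± 0.39 SE (adjusted p = 0.0322). It was lost without control 1 (1.42, adjusted p = 0.36), without stroke 2 (1.62, 0.211), without B barcodes in other gates (1.21, 0.703), at a minimum of 5 Cd79 UMIs (1.46, 0.281) and in the thinned subset (3.69, 0.576). Cd72 stood at 62.0, 83.1, 85.8 and 64.7 CPM in the heart and 58.3, 48.3, 20.7 and 11.6 in the blood. Blood values of Cd72 were lower in both stroke mice and heart values overlapped.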

How the results depend on the processing

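All 10 genes stayed higher in B barcodes under every alternative run, and the remaining comparisons depended on the settings. Of 895 values of single genes under an alternative, 803 kept direction and side of the threshold, 41 gained a call, 31 lost one and 20 changed sign. Where no cause is given below, the cause was not tested.

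Genes called between heart and blood (954) numbered 507 with DESeq2, 1510 without the filter, 634 without B barcodes in other gates and 224 in thinned B barcodes without Ighd, Fcer2a and Cr2, the last chosen after seeing the data. Those between stroke and control in the heart (159) numbered 75 with DESeq2, 428 without the filter, 62 with organ from the hashtag ratio, 26 without Scrublet, 6 without other gates, 1 at a minimum of 5 Cd79 UMIs, 332 with the replicate block, 44 with all 8 sums in 1 fit and 81 in the thinned subset. In the blood (0) they were 2 with DESeq2 and 86 without the filter. Interaction calls (35) were 8, 145, 114, 16 and 4 with DESeq2, without the filter, without Scrublet, without other gates and in the thinned subset. There was 1 such call without the mouse as a block. Split calls were 49 and 30 (blood, of 118) and 83 and 120 (heart, of 215) with DESeq2 and without the mouse as a block.

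Leaving out each mouse gave 4575 to 5084 and 3961 to 4780 calls for B against other barcodes in heart and blood, 613 to 818 between organs, 6 to 309 (heart; 6 without stroke 1, 309 without control 1) and 0 to 53 (blood; 53 without stroke 2) between donor groups, 68 to 274 for the interaction, and 59 to 116 (blood) and 100 to 210 (heart) for the split. The share of B barcodes, stroke minus control, ranged from -13.1 to -3.51 points in the heart and from -1.78 (without stroke 2) to 66.5 in the blood, and heart minus blood from -18.3 to 6.08 (without stroke 2).

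Signs changed as follows. Between organs, Bach2 (0.03) and Sox5 (-0.11) changed in the thinned subset and Mzb1 (0.02) without other gates, and Cr2 (-0.19 to 0.68) and Sox5 (-0.04 to 0.53) on leaving out a mouse. Between donor groups in the heart, Ighm was 0.00 without other gates, Fcer2a 0.12 without Scrublet, 0.15 without other gates and 0.01 at 5 Cd79 UMIs, and leaving out a mouse gave -0.31 to 0.61 for Ighd, -1.18 to 0.88 for Fcer2a, -1.17 to 0.07 for Cr2 and -1.13 to 0.94 for Vpreb3, and in the blood -0.03 to 0.54 for Ighm. The interaction of Bach2 was -0.10 in the thinned subset, and leaving out a mouse gave -0.44 to 2.35 for Fcer2a and -0.42 to 1.62 for Cr2. Mice of the 2 donor groups share only a replicate number, and no label says whether it marks a batch. Deviations of same-numbered mice correlated at -0.00043 (heart) and -0.00972 (blood). With 2 mice per group these values cannot decide whether the number marks a pairing. Sums of 63 to 983 barcodes limit the precision of the less abundant genes.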

Other observations

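The matrix held 2 reporter transcripts, agfp and kgfp, whose meaning the sources used here do not give. A UMI of agfp was found in 12.7%, 14.1%, 33.3% and 12.8% of heart B barcodes and in 13.1%, 27.0%, 39.6% and 13.9% of blood B barcodes, in the order control 1, control 2, stroke 1, stroke 2. Other barcodes held it in 47.7%, 44.3%, 50.9% and 49.2% in the heart and 44.8%, 85.4%, 95.8% and 77.4% in the blood, at lower median depth. B barcodes with Il5ra (8.86% to 36.8%) and those with Ighd, Fcer2a or Cr2 (10.4% to 35.0%) spanned similar ranges over mice and organs. These classes were set at unlike depths. Il5ra, like Vpreb3 below, was read at full depth, and Ighd, Fcer2a and Cr2 after thinning to 2000 UMIs. B barcodes with Vpreb3 held agfp in 20.5%, 41.2%, 58.3% and 30.5% in the blood, above all B barcodes of each mouse, from 39, 17, 12 and 82 barcodes, and in 18.2%, 15.0%, 66.7% and 9.09% in the heart, from 11, 20, 3 and 33. kgfp was found only in control replicate 1, in 7.01% of its heart and 16.4% of its blood B barcodes, against 55.6% and 71.3% of its other barcodes. In the other libraries it was at 0, for example in 0 of 983 blood B barcodes of stroke 2, which allows a share of barcodes with a UMI of up to 0.375% (exact 95% interval) and says nothing of cells that express it below detection.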
